A study of Rattus norvegicus with 30 samples.

Results

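The subject is the part of the liver's phenobarbital (PB) response that depends on CAR, the constitutive androstane receptor. It was measured as a difference of responses, the change on PB in CAR KO rats minus the change on PB in SD rats, on 16 of the 30 liver arrays of the study. The SD rats were male Crl:CD(SD) rats, an outbred stock, and the CAR KO rats were male rats with a knockout of CAR. Each model gave 4 arrays on a diet with 0 ppm PB (control) and 4 on a diet with 1000 ppm PB, fed for 7 days, and the labels call the arrays biological replicates. The strain background of the CAR KO rats, the deleted part of the gene, the number of founder lines and the age of the animals are not given in the sources used here. The other 14 arrays, 7 on each diet, came from livers of male chimeric mice with rat hepatocytes, whose non-parenchymal cells and remaining hepatocytes are the host's, and served only as arrays outside the comparison.

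CAR is a nuclear receptor of hepatocytes, encoded by Nr1i3, that stays in the cytoplasm until a drug such as PB sends it to the nucleus. There it pairs with the retinoid X receptor on DNA, at paired copies of a short half-site, and raises genes of drug oxidation, conjugation and transport. It is known best for the Cyp2b genes, shares many targets with the related receptor PXR (Nr1i2), and in rodents has also been tied to liver growth and to lower glucose production.

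Levels are log2 values of the scanner's processed signal relative to each array's 75th percentile, so 0 is the 75th percentile and 1 unit is 2-fold. Of the probes, between 58.7% and 67% were well above background on each of the 16 arrays by the scanner software's own test. This share was 63.26% to 64.64% on the SD control arrays, 58.7% to 60.78% on the SD PB arrays, 64.44% to 67% on the CAR KO control arrays and 60.33% to 64.65% on the CAR KO PB arrays. All 17 hepatocyte markers on the array were well above background on every one of the 16 arrays. The probe used for Nr1i3 was not lower in CAR KO controls (-0.05, adjusted p = 0.907), its place relative to the deletion is not given, and it therefore checks nothing about the labels. All SD arrays lay on slide 1 and all CAR KO arrays on slide 2, so slide and genotype cannot be told apart in a direct comparison of the models. On both slides row 1 held control and row 2 PB, and a row effect of the same size on both slides cancels in the difference of responses. Within a single model the row and the diet cannot be told apart.

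The PB response differed between the models for 95 of 17812 genes or unnamed transcripts tested (0.533%; limma, Benjamini-Hochberg adjusted p below 0.05). Of these, 76 responded less in CAR KO rats (0.427%) and 19 responded more (0.107%). A symbol was known for 61 of them, 50 lower and 11 higher, and 34 were unnamed probes. Over all genes tested the median difference was -0.01 and 48% of genes lay above 0. At an unadjusted p below 0.05 the count was 2347. Of the 61 with a symbol 22 stood on at least 1 of the 29 process lists, and on 15 of these lists no member was called.

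Most of the 76 with a lower response had risen on PB in SD rats and moved little in CAR KO rats. Their median response was 0.97 in SD rats against -0.09 with CAR absent, and 60 of them moved by less than 0.5 in CAR KO rats. The SD response passed its own test as a rise for 64 of them, none of which was called in CAR KO rats. The 4 SD PB arrays stood clear of the 4 SD control arrays in 73 of the 76, against 11.5% of all genes tested, and the CAR KO groups were apart in 24, against 10.8%. Since the difference contains both responses, these counts describe the members and were not tested. Of the 76, 11 were well above background on no array of at least 1 group. Some of these, such as A_44_P560070, were so on no SD array, and their SD rise lies between unmeasured levels. The 19 with a higher response had all been below 0 in SD rats, with a median of -0.51 there and 0.37 in CAR KO rats. Of the 19, 12 passed the test as a fall in SD rats. In bulk liver, fewer cells of a type and less RNA per cell cannot be told apart.

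**Figure D1:**
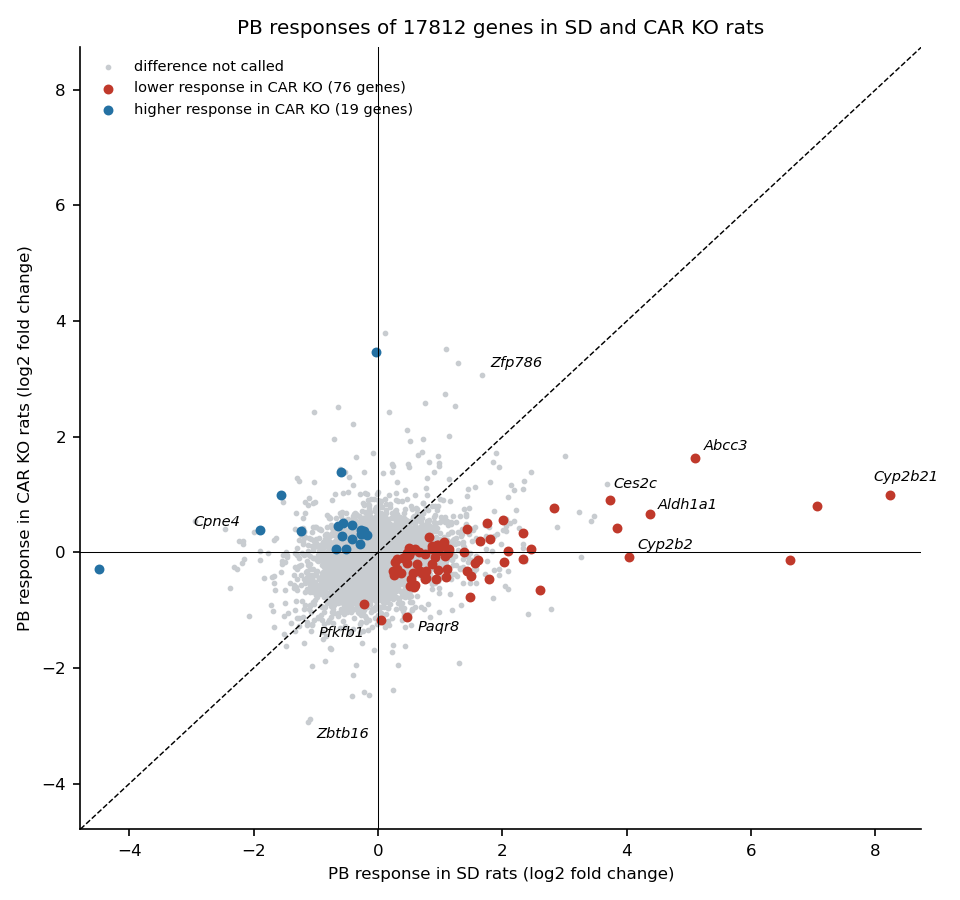
Each point is 1 of 17812 genes, with its PB response in SD rats on the x axis and in CAR KO rats on the y axis (both log2, mean of 4 PB arrays minus mean of 4 control arrays); red marks the 76 genes with a lower response in CAR KO rats, blue the 19 with a higher one, grey all others, and the dashed line is equality. The red genes spread to the right along a CAR KO response near 0 (median -0.09), and the blue genes lie to the left of 0 (median SD response -0.51); genes not measured in some group, such as Cyp2b21 and Abcc3, are plotted at their fitted values.

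Seen from the SD arrays alone, 732 genes changed on PB (4.3% of 17009 tested; 2.5% rose and 1.8% fell), and 95 of them rose and 41 fell by at least 2-fold. The CAR KO arrays had no part in choosing these genes beyond the shared estimate of spread. The SD responses did choose them, so SD medians and shares of the SD response are descriptions and were not tested. The 95 risers had a median of 1.72 in SD and 0.20 in CAR KO rats, where 66 moved the same way and 8 reached at least 50% of the SD log2 response. In CAR KO rats 1 of the 95 passed the test. The difference passed for 34 of them. The 41 that fell had a median of -1.34 in SD and -0.34 in CAR KO rats, where 26 moved the same way and 10 reached at least 50% of the SD response. The difference passed for 4 of the 41. In CAR KO rats 36 of 17551 genes changed on PB (0.205%), 9 higher (0.0513%) and 27 lower (0.154%), with 2857 at an unadjusted p below 0.05. The share of higher genes among them, 25% here, was 44.8% after quantile normalization and 56.2% after median centring, so the split between rises and falls in CAR KO rats depended on the scaling.

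Among genes with a symbol, drug oxidation genes held the largest lower responses by fitted value. An unnamed transcript measured in every group, NM_017272, differed by more than Cyp2b2 (-6.26 ± 0.678, adjusted p = 0.000854), as its values showed afterwards, and it carries no name here. Cyp2b2, the P450 by which rat liver induction by PB is usually followed, had SD levels of 2.84, 3.21, 2.84 and 2.88 on control diet and 6.89, 7.11, 7.35 and 6.56 on PB. In CAR KO rats its levels were 2.74, 2.89, 2.90 and 2.94 on control diet and 2.65, 2.71, 2.83 and 2.91 on PB. Only the SD PB arrays stood high, and the CAR KO groups overlapped. The difference of responses was -4.12 ± 0.196 (standard error, n = 4 per group, adjusted p = 9.07e-08). A second probe of Cyp2b2 gave a difference of -7.12, with an SD response of 6.96 and a CAR KO response of -0.16. Cyp2b genes are close copies of each other, so signal from another member on either probe was not tested.

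Cyp2b21, another gene of the family, was not well above background on any CAR KO control array, so its difference passed (adjusted p = 0.000677) without a size. Its SD PB arrays read 1.54 to 2.64 and the other 12 arrays lay at -4.37 or below. Cyp3a23-3a1, the rat CYP3A enzyme that is a textbook target of PXR, read 4.95, 5.55, 5.07 and 5.74 on SD control and 7.27, 7.78, 7.43 and 7.23 on SD PB. It read 5.56, 5.45, 5.10 and 5.47 on CAR KO control and 5.05, 5.31, 5.72 and 5.61 on CAR KO PB. The SD groups were apart, and the CAR KO PB arrays fell on both sides of their controls. The difference was -2.07 ± 0.274 (95% confidence interval -2.66 to -1.48, adjusted p = 0.00329), and the CAR KO response was 0.03 ± 0.193. Cyp3a2, the male CYP3A form, had a difference of -1.50 ± 0.535 and did not pass (adjusted p = 0.256).

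Cyp26a1, which breaks down retinoic acid, read -3.06, -2.14, -2.90 and -2.24 on SD control and -0.74, -0.23, -0.30 and 0.24 on SD PB. It read -2.43, -2.69, -2.84 and -2.76 on CAR KO control and -2.64, -2.90, -2.46 and -3.19 on CAR KO PB. The SD PB arrays were again alone above the rest, with a difference of -2.44 ± 0.333 (adjusted p = 0.00375). Por, the reductase that feeds electrons to every microsomal P450, differed by -1.75 ± 0.249 (adjusted p = 0.00461). Por was already lower in CAR KO rats on control diet (-0.73, adjusted p = 0.0057), where slide and genotype cannot be told apart. Of the 38 P450 and partner genes tested, 6 responded less in CAR KO rats and 0 responded more, with a list median of -0.18 against -0.01 over all genes. Alas1, the first enzyme of heme synthesis, rose in SD rats (1.41 ± 0.197) and stood at 0.49 ± 0.198 in CAR KO rats, and its difference did not pass (-0.92 ± 0.28, adjusted p = 0.173).

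The 250 bases before the start of 3 of these genes are shown because the members moved together and CAR and its relatives bind paired half-sites. Sequences are from RefSeq on GRCr8, 5′ to 3′ in the direction of transcription, with every half-site in capitals. The half-sites searched were AGGTCA and AGTTCA on both strands, and paired copies in the same direction 3, 4 or 5 bases apart are named DR3, DR4 and DR5.
Cyp2b2 (chr1:90722031-90722280, plus strand): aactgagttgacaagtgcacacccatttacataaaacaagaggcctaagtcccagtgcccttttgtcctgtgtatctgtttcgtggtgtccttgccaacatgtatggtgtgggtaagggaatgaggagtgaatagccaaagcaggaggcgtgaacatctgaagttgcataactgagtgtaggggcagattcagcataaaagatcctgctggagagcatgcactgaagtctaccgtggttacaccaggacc
Cyp3a23-3a1 (chr12:14398804-14399053, minus strand): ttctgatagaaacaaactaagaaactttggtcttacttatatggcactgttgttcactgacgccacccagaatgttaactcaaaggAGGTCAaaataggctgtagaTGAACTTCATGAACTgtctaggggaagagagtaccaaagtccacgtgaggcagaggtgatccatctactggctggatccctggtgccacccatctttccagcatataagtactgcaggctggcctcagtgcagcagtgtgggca
Cyp26a1 (chr1:244883572-244883821, plus strand): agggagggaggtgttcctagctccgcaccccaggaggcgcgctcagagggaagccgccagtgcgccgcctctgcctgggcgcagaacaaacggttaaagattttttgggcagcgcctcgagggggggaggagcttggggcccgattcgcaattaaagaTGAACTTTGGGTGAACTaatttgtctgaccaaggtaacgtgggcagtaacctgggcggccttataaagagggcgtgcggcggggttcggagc
The window of Cyp2b2 held 0 half-sites, that of Cyp3a23-3a1 held 3 with a DR3 pair, and that of Cyp26a1 held 2 as a DR5 pair. A promoter matched 42 of the 50 symbols with a lower response, and 18 of these (42.9%) held at least 1 half-site, as did 3 of 7 with a higher response (42.9%). The share was 25.4% over 27457 promoters and 19.5% over the 8788 promoters of genes tested. A DR3 pair was found in 10 of all promoters, DR5 in 10 and DR4 in 5. Over the promoters of genes tested DR3 was found in 2, DR5 in 2 and DR4 in 0. The DR4 count of the called genes was therefore fixed at 0, for these windows and spellings only. Unnamed transcripts and symbols without a matched promoter were not searched. A match of letters is a description of the window and shows no binding. A window without a half-site, as for Cyp2b2, does not show that the gene lacks one. Bases further upstream and other spellings were not searched.

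Detoxifying enzymes downstream of the P450s were the next group. Aldh1a1, which makes retinoic acid from retinaldehyde and also clears aldehydes, read 1.11, 2.88, 0.84 and 1.78 on SD control and 6.29, 6.15, 6.06 and 5.59 on SD PB. It read 2.87, 2.86, 1.68 and 0.92 on CAR KO control and 2.83, 2.86, 2.96 and 2.35 on CAR KO PB. The control arrays of both models spread over about 2 units and the SD PB arrays lay above all of them. The difference was -3.70 ± 0.641 (adjusted p = 0.0171). Of 24 aldehyde dehydrogenase and retinoid genes tested, Aldh1a1 and Cyp26a1 were the 2 called, both lower, and the list median was 0.06.

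Ces2c, a carboxylesterase that cleaves ester drugs, read -1.19, -0.50, -0.60 and -0.83 on SD control and 2.81, 3.61, 3.06 and 2.30 on SD PB. It read -0.45, -0.38, 0.04 and -0.37 on CAR KO control and 1.32, 0.37, 0.18 and 0.55 on CAR KO PB. In CAR KO rats every PB array lay above every control array, by less than in SD rats. The difference was -2.83 ± 0.387 (adjusted p = 0.00375), and the CAR KO response of 0.90 ± 0.273 did not pass (adjusted p = 0.145). Of 17 carboxylesterase and hydrolase genes tested Ces2c was the 1 called, and 9 lay below 0. The list median of -0.48 was 0.07 without SD control 1, 0.02 without SD PB 2, -0.08 without SD PB 4, -0.22 without CAR KO PB 1 and -0.11 after normexp, so its sign rested on single arrays. Ephx1, the microsomal epoxide hydrolase, gave the same picture, with 2.01 ± 0.163 in SD and 0.56 ± 0.163 in CAR KO rats (adjusted p = 0.126), where its PB and control arrays did not overlap. The difference for Ephx1 was -1.44 ± 0.231 (adjusted p = 0.0104).

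Conjugation and export genes were fewer. Of 45 conjugation enzymes 3 responded less in CAR KO rats and 0 more, with a list median of -0.17. The glutathione transferase Gsta4 read 5.79 to 6.11 on SD control, 6.78 to 6.87 on SD PB, 5.49 to 5.70 on CAR KO control and 5.68 to 5.87 on CAR KO PB. Its difference was -0.76 ± 0.111 (adjusted p = 0.00585). The transferase Gstm1 differed by -1.13 ± 0.192 (adjusted p = 0.0164), and the glucuronosyltransferase Ugt2b37 by -0.41 ± 0.0754 (adjusted p = 0.0222). Ugt2b37 missed the threshold in 10 of 27 other settings, among them the arrays SD PB 1, SD PB 2, CAR KO control 4, CAR KO PB 3 and CAR KO PB 4 when each was left out (adjusted p 0.0503 to 0.0591). Ugt2b1, which rose in SD rats by 3.23 ± 0.405, had a difference of -2.52 ± 0.575 that did not pass (adjusted p = 0.0755). It passed on leaving out the array CAR KO PB 1 (-2.96, adjusted p = 0.00978), after normexp (-2.54, adjusted p = 0.047) and with all 30 arrays in 1 fit (adjusted p = 0.00552). The export pump Abcc3 was measured on all 4 SD PB arrays (-1.74 to -1.57) and on 2 of 4 CAR KO PB arrays. It was measured on no control array of either model, so its difference passed (adjusted p = 0.00375) without a size. Among 24 drug and bile acid transporters Abcc3 was the 1 called.

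**Figure D2:**
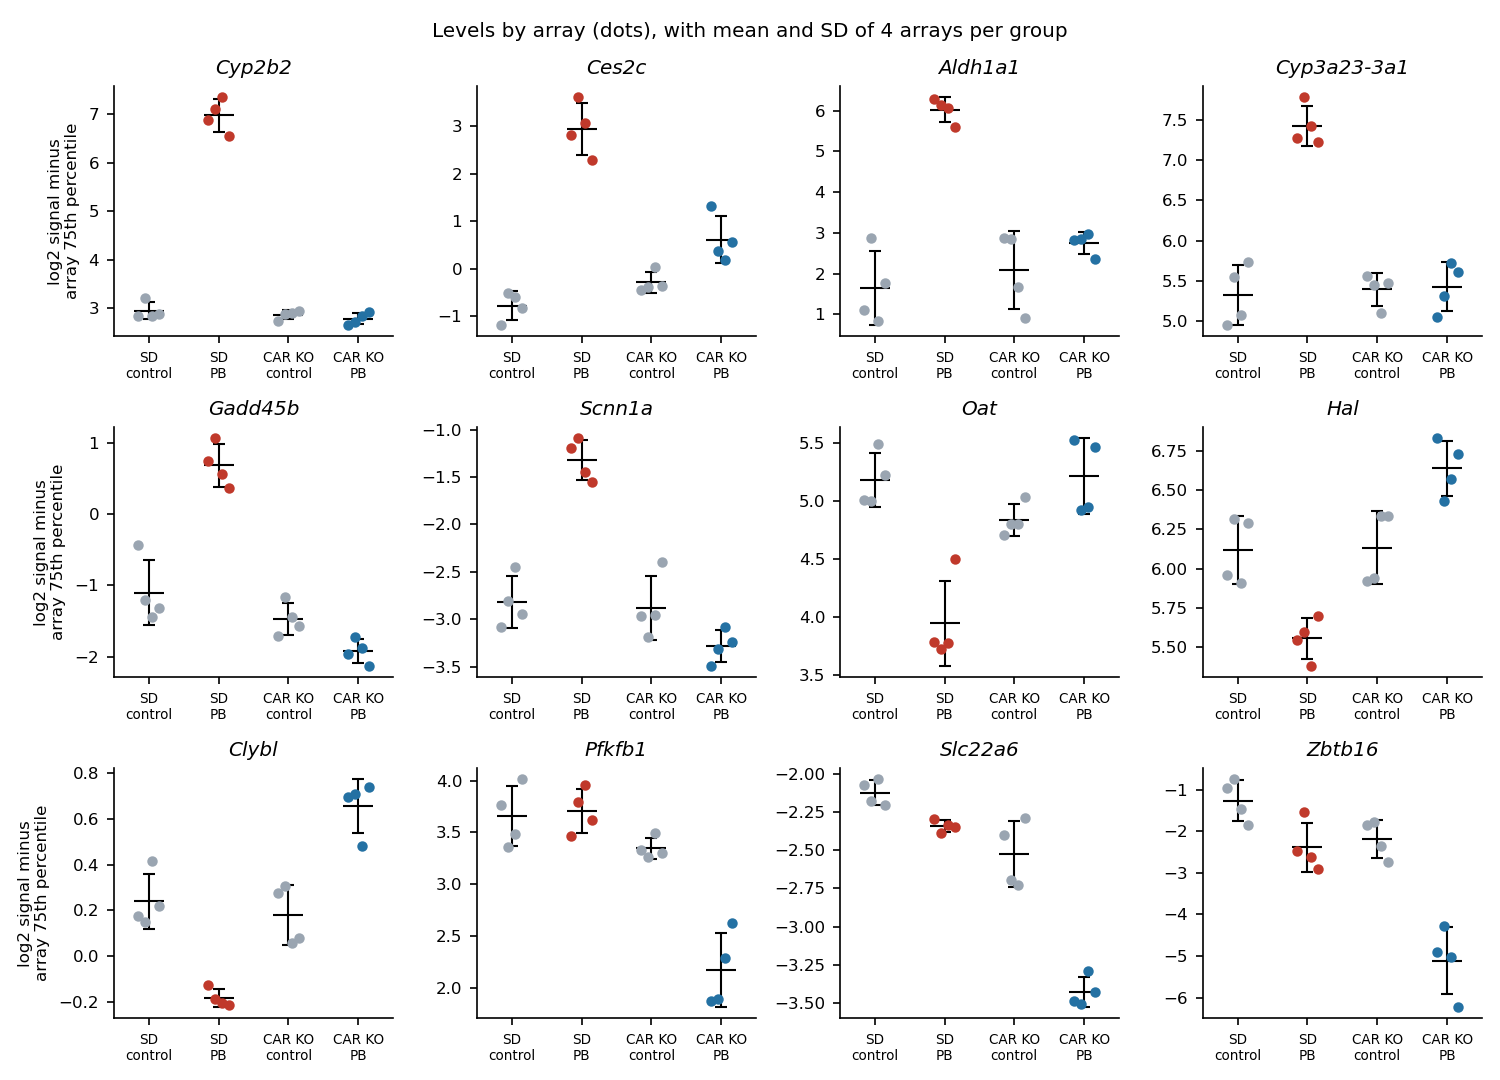
Levels of 12 genes (log2 relative to each array's 75th percentile, y axis) on the 4 arrays of each group, with 1 dot per array and a bar for the mean ± SD, in the order SD control, SD PB, CAR KO control and CAR KO PB. Cyp2b2 is high in the 4 SD PB arrays alone, from 6.56 to 7.35, and Pfkfb1 is low in the 4 CAR KO PB arrays alone, from 1.88 to 2.62.

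Glutathione and redox genes that answer to NRF2, the sensor of electrophiles, were tested as a list of 32. Of these, 4 responded less in CAR KO rats (Ephx1, Gsta4, Gstm1 and Gsr) and 0 more, with a list median of -0.42 against -0.01 over all genes. In SD rats 19 of the 32 rose on PB. The list median was 0.51 in SD rats against 0.18 with CAR absent. The mean level of the 31 members well above background on all 16 arrays was 2.61 to 2.81 on SD control, 3.32 to 3.53 on SD PB, 2.52 to 2.65 on CAR KO control and 2.76 to 2.85 on CAR KO PB. In both models every PB array lay above every control array, and the step was larger in SD rats. Gsr, glutathione reductase, differed by -0.88 ± 0.168 (adjusted p = 0.0305). Gsr missed the threshold on leaving out any 1 of 11 arrays (adjusted p 0.0501 to 0.07), all except SD control 2, SD PB 3, SD PB 4, CAR KO control 3 and CAR KO PB 2.

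Growth and cell cycle genes gave few calls. Gadd45b, a stress-inducible gene that CAR is known to raise in mouse liver, read -0.44, -1.21, -1.45 and -1.32 on SD control and 0.75, 1.06, 0.56 and 0.36 on SD PB. It read -1.71, -1.16, -1.45 and -1.57 on CAR KO control and -1.97, -1.73, -1.88 and -2.13 on CAR KO PB. The SD PB arrays were the highest and the CAR KO PB arrays the lowest, with no overlap between diets in either model. The difference was -2.24 ± 0.289 (adjusted p = 0.00286), while the CAR KO response of -0.45 ± 0.204 did not pass (adjusted p = 0.292).

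Of 28 DNA replication genes tested 2 responded less in CAR KO rats and 0 more. Gins1, part of the replicative helicase, read -3.46 to -3.28 on SD control, -2.57 to -2.17 on SD PB, -3.65 to -3.31 on CAR KO control and -3.65 to -3.26 on CAR KO PB. Its difference was -0.95 ± 0.15 (adjusted p = 0.00949), and -0.46 after normexp. Rfc2, a subunit of the clamp loader, differed by -0.78 ± 0.119 (adjusted p = 0.00812), and its CAR KO response was -0.02 ± 0.0842. Of 31 mitosis genes tested limma called 0 for the difference, although 27 lay below 0 and 14 did so at an unadjusted p below 0.05. The mitosis median was -0.92 over the 31 tested and -0.59 over the 18 well above background on all 16 arrays, where the median of all genes was -0.01. After normexp background correction the list median was -0.31, so its size depended on the processing. The reason was not tested. Averaged over the 18, SD arrays stood at -1.84, -2.41, -2.16 and -2.41 on control diet and at -1.39, -1.71, -2.01 and -1.76 on PB. CAR KO arrays stood at -2.44, -1.59, -2.34 and -2.40 on control diet and at -2.55, -2.56, -2.42 and -1.93 on PB. The diets overlapped in both models, and CAR KO control 2 stood above the rest of its group. Without CAR KO PB 4 the median over the genes tested was -1.23 and 2 were called, and 1 was called without SD PB 4 or without CAR KO control 3. Kif11, a spindle motor, was the nearest to the threshold (-1.23 ± 0.264, adjusted p = 0.0559), with an SD response of 1.03 ± 0.186.

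Of the 26 cholesterol synthesis genes 12 rose on PB in SD rats, and no difference between the models was called. All 26 were well above background on all 16 arrays. Averaged over the list, SD arrays stood at 2.28, 2.16, 2.24 and 2.17 on control diet and at 2.79, 2.49, 3.28 and 2.99 on PB. CAR KO arrays stood at 2.34, 2.32, 2.34 and 1.96 on control diet and at 2.16, 2.57, 2.36 and 2.10 on PB. The SD groups were apart and the CAR KO groups overlapped. The list's median difference was -0.56, 25 of 26 lay below 0, and limma called 0 of 26, with 15 lower at an unadjusted p below 0.05. Without SD PB 2, the lowest of its group, 3 were called. Msmo1, a sterol demethylase, had the smallest p of those named (-1.28 ± 0.284, adjusted p = 0.0667).

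Scnn1a, Dusp13b and Stc1 were named by the size of their lower response and stood on none of the process lists. Scnn1a, a subunit of the epithelial sodium channel, read -3.08, -2.81, -2.45 and -2.95 on SD control and -1.20, -1.09, -1.45 and -1.55 on SD PB. It read -2.97, -3.19, -2.96 and -2.40 on CAR KO control and -3.49, -3.31, -3.09 and -3.24 on CAR KO PB. The SD groups were apart, and the CAR KO groups overlapped. The difference was -1.91 ± 0.243 (adjusted p = 0.00275), and -1.11 after normexp background correction. Dusp13b, a phosphatase gene, differed by -2.05 ± 0.258 (adjusted p = 0.00275), with 2.82 in SD and 0.77 in CAR KO rats, where every PB array again lay above every control array. After normexp its difference was -0.94. Stc1, which encodes the secreted glycoprotein stanniocalcin, was well above background on 3 SD PB arrays and on none of the other 13. Its difference passed (adjusted p = 0.00375) without a size and missed the threshold after normexp (adjusted p = 0.0945).

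The 11 named genes that responded more in CAR KO rats include 3 enzymes of amino acid breakdown, Oat, Hal and Kmo, grouped here after their values were seen. Oat, ornithine aminotransferase, read 5.01, 5.0, 5.49 and 5.23 on SD control and 3.79, 3.73, 3.78 and 4.50 on SD PB. It read 4.71, 4.81, 4.80 and 5.04 on CAR KO control and 5.53, 4.92, 4.95 and 5.46 on CAR KO PB. PB arrays were below controls in SD rats without overlap, and in CAR KO rats they were mostly above with overlap. The difference was 1.61 ± 0.265 (adjusted p = 0.0126). The promoter of Oat is shown as the largest difference among the named genes of this direction that were measured in every group, and it held 2 half-sites, in capitals, that form no DR3, DR4 or DR5 pair.
Oat (chr1:196797755-196798004, minus strand): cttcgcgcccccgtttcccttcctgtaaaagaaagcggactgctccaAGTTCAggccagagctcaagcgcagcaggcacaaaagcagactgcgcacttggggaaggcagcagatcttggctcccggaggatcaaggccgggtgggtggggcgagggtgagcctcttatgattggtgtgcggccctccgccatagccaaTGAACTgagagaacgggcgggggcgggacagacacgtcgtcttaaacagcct

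Hal, which starts histidine breakdown, read 5.96, 6.32, 5.91 and 6.29 on SD control and 5.54, 5.60, 5.38 and 5.70 on SD PB. It read 5.92, 5.94, 6.33 and 6.33 on CAR KO control and 6.83, 6.43, 6.57 and 6.73 on CAR KO PB. The diets did not overlap in either model and lay in opposite order. The difference was 1.07 ± 0.187 (adjusted p = 0.0175). The fall in SD rats passed (-0.56, adjusted p = 0.028) and the CAR KO response did not (0.51, adjusted p = 0.0976). Kmo, an enzyme of tryptophan breakdown, differed by 0.60 ± 0.123 (adjusted p = 0.0482) and missed the threshold in 19 of 27 other settings, 14 of them on leaving out 1 array (adjusted p 0.0617 to 0.102). Of the settings that leave out 1 array, it passed without SD control 1 and without SD PB 4.

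Clybl, a mitochondrial lyase of the citramalate pathway, was the 1 gene called in opposite directions. It read 0.17, 0.15, 0.42 and 0.22 on SD control and -0.13, -0.19, -0.20 and -0.22 on SD PB. It read 0.28, 0.31, 0.06 and 0.08 on CAR KO control and 0.69, 0.71, 0.48 and 0.74 on CAR KO PB. All SD PB arrays lay below all SD controls and all CAR KO PB arrays above all CAR KO controls. The fall in SD rats was -0.42 ± 0.0806 (adjusted p = 0.0096), the rise in CAR KO rats 0.48 ± 0.0808 (adjusted p = 0.0345) and the difference 0.90 ± 0.114 (adjusted p = 0.00275). The CAR KO rise missed the threshold on leaving out any 1 of 7 arrays (adjusted p 0.0533 to 0.105), namely SD PB 4, CAR KO control 1, 3 or 4, or CAR KO PB 1, 2 or 4.

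Unnamed transcripts of this direction differed by more than Oat. NM_017061 differed by 4.19 ± 0.585 (adjusted p = 0.00426), from a fall of -4.49 in SD rats to -0.30 in CAR KO rats. It was well above background on only 1 SD PB array, so this size rests partly on unmeasured levels. ENSRNOT00000021405 differed by 2.56 ± 0.429 (adjusted p = 0.015) and ENSRNOT00000054875 by 1.996 ± 0.393 (adjusted p = 0.0384). The other named genes of this direction were smaller or less well measured. Hsd17b2, which inactivates oestradiol and testosterone, differed by 0.86 ± 0.152 (adjusted p = 0.0192, and 0.0502 to 0.0504 without CAR KO control 4 or CAR KO PB 2). Slc17a2, a phosphate transporter of the SLC17 family, differed by 0.75 ± 0.103 (adjusted p = 0.00375), from a fall of -0.68 in SD rats to 0.07 in CAR KO rats. Cpne4, a copine, fell in SD rats to levels not well above background on any PB array, so its difference was at least 2.01 (adjusted p = 0.0185). A second probe gave 1.56, and normexp gave a fitted 0.56. Dyrk2, a protein kinase, differed by 0.45 ± 0.0769 (adjusted p = 0.017), and Rilp, a lysosomal adaptor, by 0.66 ± 0.119 (adjusted p = 0.0203). Rilp missed the threshold without SD control 3 or SD PB 1 (adjusted p 0.0501 to 0.0534). Gpx1, a glutathione peroxidase, differed by 0.59 ± 0.122 (adjusted p = 0.0481) and missed the threshold on leaving out any 1 of 14 arrays (0.0605 to 0.0984), all except SD control 2 and CAR KO control 3. C1h19orf12 differed by 0.65 ± 0.129 (adjusted p = 0.0394) and missed it on leaving out any 1 of 13 arrays (0.0545 to 0.0904), all except SD PB 4, CAR KO control 2 and CAR KO PB 4.

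Periportal and urea cycle genes, expressed where blood enters the lobule, lay on the same side as a list. Of 28 tested, 1 (Hal) had a higher response in CAR KO rats and 0 a lower one. Of the 28, 23 lay above 0, and the median difference was 0.36. Over the 27 members well above background on all 16 arrays the mean level was 4.60 to 4.72 on SD control, 4.21 to 4.49 on SD PB, 4.41 to 4.52 on CAR KO control and 4.31 to 4.66 on CAR KO PB. The SD PB arrays lay below every SD control, and the CAR KO groups overlapped. Agxt, alanine-glyoxylate aminotransferase, was just outside the threshold (0.86 ± 0.183, adjusted p = 0.0534). Female-predominant liver genes had a median of 0.25 with 1 of 19 called higher, and glucose metabolism genes one of 0.29 with 1 of 27 called lower. Of the cell type markers, those of hepatocytes included, limma called 0 for the difference on any of the 8 lists, with from 0 to 3 members of a list at an unadjusted p below 0.05. The 6 erythroid markers tested had a median difference of 0.87 and the 3 neutrophil markers one of 0.78. Summed as a mean level, erythroid markers ran from 0.45 to 1.68 on SD control, 0.26 to 0.98 on SD PB, 0.45 to 1.18 on CAR KO control and 0.71 to 1.33 on CAR KO PB, with 2 of 8 markers on no array above background. Of the 10 neutrophil markers, 7 were above background on no SD array. The mean level of the 3 measured on all 16 arrays ran from -1.84 to -1.10 on SD control, -2.35 to -1.75 on SD PB, -2.08 to -1.51 on CAR KO control and -2.14 to -1.31 on CAR KO PB. Their part in the higher responses was not tested.

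**Figure D3:**
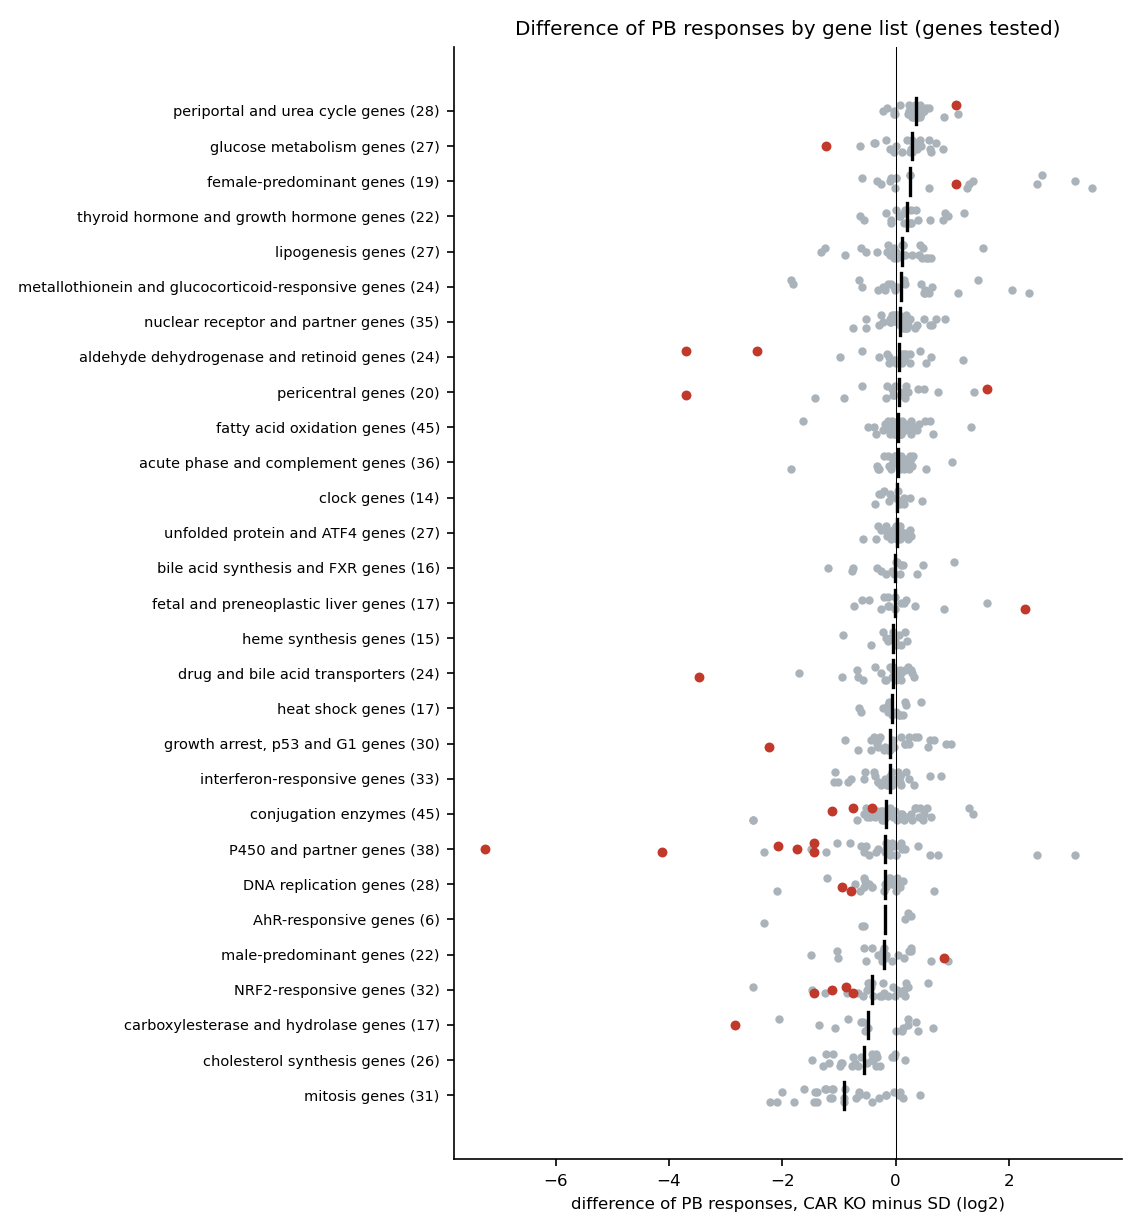
The difference of PB responses (CAR KO minus SD, log2, x axis) of every tested member of the 29 process lists, with 1 line per list, a dot per gene, red for members past the threshold and a black bar for the list's median. The 4 lowest medians are those of mitosis (-0.92), cholesterol synthesis (-0.56), carboxylesterase and hydrolase (-0.48, near 0 without SD control 1 or SD PB 2) and NRF2-responsive genes (-0.42), and periportal genes stand at 0.36.

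Responses that passed only with CAR absent were few. Of the 36 genes called in CAR KO rats, 5 also had a called difference and 31 did not, so for those 31 a response confined to CAR KO rats was not shown. The 5 were Pfkfb1, Slc22a6 and Paqr8, which fell, and Clybl and 1 unnamed probe, which rose.

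Pfkfb1, the liver enzyme that makes and breaks down fructose 2,6-bisphosphate, a switch between glycolysis and gluconeogenesis, read 3.76, 3.36, 3.49 and 4.01 on SD control and 3.46, 3.80, 3.96 and 3.62 on SD PB. It read 3.33, 3.26, 3.49 and 3.31 on CAR KO control and 1.88, 1.90, 2.29 and 2.62 on CAR KO PB. The SD groups overlapped, and the CAR KO PB arrays lay below the other 12. The SD response was 0.05 ± 0.173, and the CAR KO response was -1.17 ± 0.173 (adjusted p = 0.0189), with a difference of -1.23 ± 0.245 (adjusted p = 0.0402). The difference missed the threshold on leaving out any 1 of 13 arrays (adjusted p 0.0545 to 0.0918), all except SD control 4, SD PB 1 and CAR KO PB 4. The CAR KO fall missed it without CAR KO control 1 or CAR KO PB 2 (0.0502 to 0.0739).

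Slc22a6, the organic anion transporter OAT1, better known from kidney, read -2.07, -2.18, -2.04 and -2.20 on SD control and -2.29, -2.39, -2.33 and -2.35 on SD PB. It read -2.40, -2.70, -2.73 and -2.29 on CAR KO control and -3.48, -3.51, -3.29 and -3.43 on CAR KO PB. PB arrays lay below controls in both models, and by more in CAR KO rats. The CAR KO fall (-0.90 ± 0.0916, adjusted p = 0.00187) passed in all 27 other settings, and the SD value was -0.22 ± 0.0914 (adjusted p = 0.197). The difference of -0.68 ± 0.13 (adjusted p = 0.0298) missed the threshold in 16 of them, 10 on leaving out 1 array (0.0534 to 0.0783). Among those it held without SD control 3, SD PB 4, CAR KO control 2, 3 or 4, or CAR KO PB 3, and normexp gave -0.34 (adjusted p = 0.147).

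Paqr8, a membrane progesterone receptor, was well above background on 0 SD control, 2 SD PB, 4 CAR KO control and 0 CAR KO PB arrays. Its CAR KO level fell at least 1.94-fold (adjusted p = 0.0454), a call lost on leaving out any 1 of 11 arrays (0.0504 to 0.128), all except SD control 4, SD PB 1, 2 or 4 and CAR KO PB 2. Its difference passed (adjusted p = 0.0197) with a size of -1.42 or beyond. It missed the threshold after normexp (-0.25, adjusted p = 0.211), when the replicate number was a block (0.0611), and when the spread was fitted as trended and robust (0.0528). The unnamed probe, A_64_P064197, was measured on 3 of 4 CAR KO PB arrays and on none of the other 12. It rose at least 5.72-fold in CAR KO rats (adjusted p = 0.0025), and its difference passed (adjusted p = 0.00872) without a size.

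The largest named fall in CAR KO rats was that of Zbtb16, a transcription factor induced by glucocorticoids. It fell by 2.93 ± 0.397 (7.61-fold, adjusted p = 0.0149), and its SD response was -1.12 ± 0.396 (adjusted p = 0.127). Zbtb16 was well above background on only 2 of the CAR KO PB arrays, so the size of its fall rests partly on unmeasured levels. The fall passed in all 26 other settings, with fitted values from -3.21 to -1.17. The difference for Zbtb16, -1.80 ± 0.562, did not pass (adjusted p = 0.185), and it passed in 1 other setting, with the replicate number as a block (adjusted p = 0.00981). The flavin monooxygenase Fmo2 (-1.12, adjusted p = 0.165) and the actin-binding gene Ablim3 (-1.002, adjusted p = 0.113) likewise had a called fall in CAR KO rats and no called difference. The Fmo2 fall missed the threshold on leaving out any 1 of 8 arrays (adjusted p 0.0515 to 0.111), SD PB 4, CAR KO control 1, 2, 3 or 4, or CAR KO PB 1, 2 or 3. The Ablim3 fall missed it without CAR KO PB 2 or 4 (0.0513 to 0.0788). The count of 36 calls in CAR KO rats rested on few arrays. It was 7 without CAR KO PB 2, 11 and 15 without CAR KO control 1 and 4, 17 and 12 without CAR KO PB 3 and 4, 23 without SD control 1 and 20 without SD PB 4.

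The genes of the next group were named for the largest CAR KO response in the direction of the SD response, so their likeness is a description. Zfp354a, a zinc finger gene known from kidney injury, fell by 1.14 ± 0.253 in SD rats and stood at -1.20 ± 0.254 in CAR KO rats (adjusted p = 0.0584). Its difference was -0.06 with a 95% confidence interval of -0.83 to 0.72. Kcnh1, a potassium channel gene, stood at -1.33 in SD and -1.35 in CAR KO rats, with a difference of -0.02 (-0.88 to 0.85). Cpt1a, which loads fatty acids for import into mitochondria, stood at -1.23 and -0.85, with a difference of 0.38 (-0.44 to 1.20). Mcm10, a DNA replication factor, stood at -1.69 and -1.01, with a difference of 0.68 (-0.47 to 1.84). The intervals allow sizeable differences, so like values here do not show equal responses. Ces2j, a second carboxylesterase, rose by 2.46 ± 0.343 in SD rats and stood at 1.39 ± 0.343 in CAR KO rats (adjusted p = 0.0868), with a difference of -1.08 (-2.12 to -0.03; adjusted p = 0.362). In all, 3 genes rose and 3 fell past the test in both models. The zinc finger gene Zfp786 was the 1 at 2-fold or more, at least 2.99-fold in SD rats and at least 6.38-fold in CAR KO rats. Its CAR KO rise missed the threshold without CAR KO PB 2 (adjusted p = 0.0617). The fitted CAR KO response of Zfp786 was as low as 0.62 under an alternative, so these bounds hold for the main processing only. For PXR itself, Nr1i2 stood at -0.39 ± 0.096 in SD and -0.29 ± 0.0963 in CAR KO rats, with a difference of 0.10 (-0.19 to 0.39).

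The same genes were also compared between the models without PB. On control diet, 6038 of 17724 genes differed between CAR KO and SD rats (34.1%; 14.4% higher and 19.7% lower in the knockout), where slide and genotype cannot be told apart. Of the 76 with a lower response, 38 were not called on control diet, CAR KO rats were the higher model for 16 and the lower for 17, and 5 were not tested. Of the 19 with a higher response, 12 were not called on control diet. The threshold itself separated close values. Kmo (adjusted p = 0.0482) and Gpx1 (0.0481) lay just inside it, and Agxt (0.0534) and Kif11 (0.0559) just outside.

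The chimeric livers, whose arrays had no part in choosing the genes, were read for the same members. Between the diets 6168 of 14445 genes tested there differed (42.7%), 2794 higher on PB (19.3%) and 3374 lower (23.4%). The array chimeric PB 1 lay on slide 3 with all 7 chimeric control arrays, and chimeric PB 2 to PB 7 lay on slide 4. Slide and diet can therefore hardly be told apart in these livers. Of the 76 genes with a lower response in CAR KO rats, 68 were tested in chimeric livers, 57 rose, 4 fell and the median response was 1.30. Over all genes tested there the median was 0.06. Cyp2b2 rose by 5.81 ± 0.264, Por by 2.97 ± 0.456, Cyp26a1 by 3.35 ± 0.451 and Ces2c by 3.31 ± 0.271 (n = 7 per diet, adjusted p of at most 0.000152). Of the 19 with a higher response, 16 were tested, 0 rose, 6 fell and the median was -0.25. Oat (-0.86 ± 0.256, adjusted p = 0.0134), Hal (-0.96 ± 0.186, adjusted p = 0.000813) and Clybl (-0.50 ± 0.192, adjusted p = 0.0487) fell there, as in SD rats. Pfkfb1, with no called response in SD rats, rose by 0.60 ± 0.128 in chimeric livers (adjusted p = 0.00167).

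**Figure D4:**
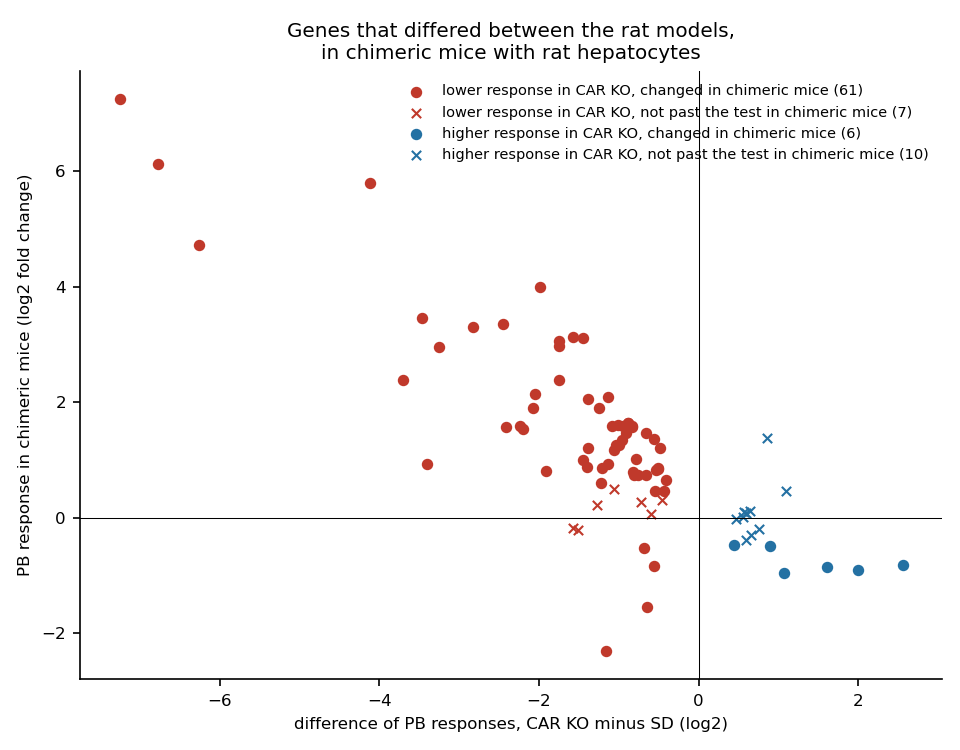
The difference of PB responses in rats (CAR KO minus SD, log2, x axis) against the PB response in chimeric livers (log2, mean of 7 PB arrays minus mean of 7 control arrays, y axis) for the called genes that were tested there. Of the 68 with a lower response 61 differed between the diets in chimeric livers, and of the 16 with a higher response 6 did. Slide and diet can hardly be told apart there.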

How the data were processed

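Liver RNA was hybridised to 1-colour Agilent rat arrays (design 028279). Per the file headers, the deposited intensity values are the processed signal of Agilent Feature Extraction 10.7.3.1 (protocol GE1_107_Sep09), background-subtracted by the scanner software and not scaled between arrays. The authors' series matrix holds log2 values whose 75th percentile is at 0 on each array to within 0.001, and it served as an alternative. Of 62976 spots, 4259 control spots were left out, which left 30367 probes. Probes were named through transcript accessions in RefSeq for GRCr8: 18004 of them gave 15170 symbols, and the other 12363 were kept as unnamed transcripts. For 2599 symbols with several probes the brightest over the rat arrays stood for the gene, leaving 26912 entries. Values tested were log2 processed intensity minus each array's 75th percentile.

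Testing required a signal well above background on 75% or more of the arrays in 1 or more of the groups compared. Tests were limma 3.58.1 (lmFit, eBayes) in R 4.3.3 with data.table (1.17.8). The 16 rat arrays were fitted together, for each comparison over its own tested genes. Benjamini-Hochberg adjustment was over all genes tested, with a threshold of 0.05. The 14 chimeric arrays were fitted apart. Every p printed is from these fits or, where a setting or a left-out array is named, from the limma fit under that alternative. Tests are two-sided, and errors of differences are standard errors. In simulated data of the difference on 17804 genes, 62 of 100 genes changed by 1 log2 unit and 94 of 100 changed by 2 were called, with 8 false calls. Where no array of a group measured a gene, its level there is only bounded by the lowest signal that counted as measured. Folds are then written "at least", or no size is given where the bound does not settle it. Such bounds hold for the main processing only. The number of arrays limits the precision, and p-values measure the spread between these samples.

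Genes are named by these rules: the 12 largest called differences with a symbol in each direction; every gene called for both the difference and the CAR KO response; of genes changed 2-fold in SD rats, those also called in CAR KO rats and the 6 of each direction with the largest CAR KO response in that direction; up to 5 members of each list by p; Nr1i3, Nr1i2, Cyp2b2, Cyp2b21, Cyp3a23-3a1, Cyp3a2, Por, Ephx1, Alas1, Ugt2b1, Gadd45b and Abcc3; and genes with a symbol changed 2-fold in CAR KO rats. The members and the gene lists were chosen with earlier results of these data known. Same-numbered arrays of different groups did not deviate together (24 pairs, median correlation -0.01, 0 above 0.1), so replicate numbers were not used as a block. Slide could not be fitted apart from genotype. Alternatives were normexp correction (offset 50), quantile and median scaling, the series matrix, filters on dim probes, all 30 arrays in 1 fit, a trended and robust spread, array weights, a replicate block, the mean of all probes of a gene, and leaving out each array.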

Additional observations from a re-analysis of the deposited data

Results flagged for a closer look

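Single arrays stood apart from the other 3 of their group for 6 named genes, by Dixon's test at the 95% level on 123 groups of 4 arrays, where chance marks about 1 group in 20. Ces2c read 0.036 on CAR KO control 3, the highest of its group. Clybl read 0.482 on CAR KO PB 3, the lowest of its group and still above every CAR KO control. Cyp2b2 read 3.214 on SD control 2, Dusp13b read -2.264 on SD PB 1, Oat read 4.499 on SD PB 4, and Slc17a2 read -0.151 on CAR KO PB 2. The SD PB array of Oat was the highest of its group and still below every SD control.

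The PB response differed between CAR KO and SD rats for 95 genes by a test of the difference itself. In 43 of them, 29 lower and 14 higher in the knockout, every PB array of one model lay above its control mean and every PB array of the other below. Of all 17812 genes tested 927 did so (5.2%), and the 43 are counted on the values that chose the 95. The 43 include unnamed probes, such as A_44_P560070, that were well above background on no SD array. For Clybl the test called opposite responses, a difference of 0.9005.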

How the results depend on the processing

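No called value of a named gene changed direction under the alternatives tried. The count of 95 genes with a different response was 39 with all 30 arrays in 1 fit, 35 of them among the 95, and ran from 64 to 110 when 1 array was left out. The count in SD rats, 732, was 3520 with no filter on dim probes, 200 with all 30 arrays in 1 fit, and 396 (without SD PB 3) to 704 on leaving out 1 array; it was 453 without SD control 1 and 484 without SD control 4. The count in CAR KO rats, 36, was 1706 with no filter on dim probes, 21 among genes well above background on all 16 arrays, 23 with all 30 arrays in 1 fit, 341 with array weights, and 7 to 43 on leaving out 1 array. The control diet count, 6038, was 2120 with all 30 arrays in 1 fit, and its share of higher genes, 42.2%, was 27.5% after normexp. With the replicate number as a block the counts were 65 for the difference, 556 in SD rats, 24 in CAR KO rats, 5711 on control diet and 7043 in chimeric livers. The cause of these changes was not tested, except that a filter changes which genes are tested. Over the named genes 1267 of their differences under an alternative stayed on the same side of the threshold, 134 no longer passed and 6 newly passed. Cyp2b2, Cyp2b21, Abcc3, Aldh1a1, Ces2c, Cyp3a23-3a1, Dusp13b and Scnn1a passed in every alternative that gave them a value, while Gadd45b, Por, Ephx1, Cyp26a1, Oat, Hal and Clybl missed only with all 30 arrays in 1 fit. Among named genes with a called difference, 9 differences shrank by over 1.5 times after normexp. The fitted values were -4.80 for Cyp2b21, -1.34 for Abcc3, -1.11 for Scnn1a, -0.94 for Dusp13b, 0.56 for Cpne4, -0.46 for Gins1, -0.38 for Stc1, -0.34 for Slc22a6 and -0.25 for Paqr8. Signal over background limits the dimmest genes, such as Cyp2b21, Abcc3, Stc1, Cpne4 and Paqr8.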
